A study of Mus musculus with 4 samples.

Results

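The genes described here encode the proteins that move calcium out of the cytosol of motor neurons, together with 1 channel that lets it back in from stores. They are 10 genes of the 27189 listed for each library. They were chosen by gene symbol, with no cutoff on a measured value, though with earlier results of these data known. They comprise the sarco/endoplasmic reticulum pumps (SERCA) Atp2a2 and Atp2a3, the plasma membrane pumps (PMCA) Atp2b1, Atp2b2, Atp2b3 and Atp2b4, the sodium/calcium exchangers (NCX) Slc8a1, Slc8a2 and Slc8a3, and the inositol trisphosphate receptor Itpr1. RNA was measured by RNA-seq of motor neuron cell bodies cut by laser from the ventral horn of 4 mice at 3 months of age, 1 library from each mouse, with 3000 to 4000 cell bodies in each. The wild-type group has 2 mice of strain 592, which carry wild-type human SOD1 fused to YFP, and the G85R group has 2 mice of strain 737, which carry the same fusion with the G85R mutation, both on a C57BL/6J x SJL/J background. All 4 mice thus carry a transgene, made from a genomic fragment of human SOD1, and the strains also differ in its copy number, which is far higher in strain 737. Each genotype is 1 transgenic strain, so that mutation, copy number and strain cannot be told apart, and cell bodies with bright aggregates were left out of the capture. The transgene has no row of its own in the files, so that genotype could not be checked against it.

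Cytosolic calcium is kept low by pumps that spend ATP and by exchangers that use the sodium gradient. SERCA pumps fill the endoplasmic reticulum, PMCA pumps have high affinity and clear the last of a calcium signal across the plasma membrane, and NCX exchangers have lower affinity and high capacity. Itpr1 opens when inositol trisphosphate binds and releases calcium from the endoplasmic reticulum. Spinal motor neurons are known for a low content of calcium-binding proteins.

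Members of a family are related in sequence, which bears on whether reads can be assigned to 1 of them. In the longest coding sequences of GENCODE vM1 (NCBIM37, the assembly that UCSC names mm9), the bases were 70.4% identical between both SERCA genes, 72.1% to 78.2% between pairs of PMCA genes and 68.7% to 72.5% between pairs of NCX genes. None of the windows of 75 bases, the length of the reads, in the longest protein-coding transcript of a member occurred in a transcript of another protein-coding gene, on either strand. Only exact matches were sought, and pseudogenes and the rest of the genome were not searched. Unique assignment of reads was therefore not settled by it.

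On mm9, Atp2a2 (Entrez Gene 11938) lies on chromosome 5 from 122903531 to 122952183, minus strand, and Atp2a3 (53313) on chromosome 11 from 72774671 to 72806546, plus strand. Atp2b1 (67972) lies on chromosome 10 from 98377786 to 98488777, plus strand, and Atp2b2 (11941) on chromosome 6 from 113695663 to 113992607, minus strand. Atp2b3 (320707) is X-linked, from 70748425 to 70816344 on the plus strand, and Atp2b4 (381290) lies on chromosome 1 from 135599255 to 135697618, minus strand. Of the exchangers, Slc8a1 (20541) is on chromosome 17 from 81785359 to 82048947 and Slc8a3 (110893) on chromosome 12 from 82298902 to 82434167, both on the minus strand, and Slc8a2 (110891) is on chromosome 7 from 16715509 to 16745858, plus strand. Itpr1 (16438) shares chromosome 6 with Atp2b2 and runs from 108163112 to 108501103 on the plus strand. Each member had 1 entry in the files.

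The unit is RPKM, reads scaled to transcript length and to the mapped reads of the library, which allows levels of different genes to be compared, within the limit on transcript length given below. The libraries held 2.16e+07 to 2.52e+07 reads on genes, estimated from the RPKM that the authors give with 1 read added. The 7 motor neuron markers had means over the libraries from 5.71 to 1065 RPKM. Chat, the enzyme of acetylcholine synthesis, had 66.3 and 81.2 RPKM in wild-type against 49.6 and 65.5 in G85R replicates 1 and 2. RNA of other cells was present too. The oligodendrocyte gene Mbp had 302 and 322 in wild-type against 412 and 334 in G85R, the astrocyte gene Gfap 11.5 and 17.1 against 91.9 and 28.4, the microglial gene C1qa 3.29 and 3.24 against 11.0 and 4.14, and the globin gene Hbb-b1, which has near-identical copies, 1.75 and 2.00 against 10.7 and 10.2. Of 8 marker lists, the summed RPKM was higher in both G85R libraries for those of interneurons, astrocytes, microglia and red blood cells, lower for that of endothelium, and overlapped for those of motor neurons, oligodendrocytes and smooth muscle.

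One pump of each compartment held most of the RNA. Over the 4 libraries Atp2a2 had 220 to 257 RPKM, above 97.95% of the 11530 genes with a mean of at least 1 RPKM, Atp2b2 had 87.6 to 93.7 and Atp2b1 31.2 to 38.4. Atp2b3 had 18.9 to 22.6 and Slc8a3 9.69 to 12.3, and these 5 genes kept the same rank in each library, with no overlap between neighbors in the order. The place of Atp2b1 is subject to the limit on transcript length given below. Itpr1 (5.79 to 9.03), Atp2b4 (4.66 to 7.64) and Slc8a1 (5.17 to 6.61) followed with overlapping ranges and ranks that differed between libraries, so that their order is not set. Slc8a2 (0.325 to 0.598) and Atp2a3 (0.194 to 0.296) were the lowest in every library, below the mean of 1 RPKM required for the test.

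**Figure D1:**
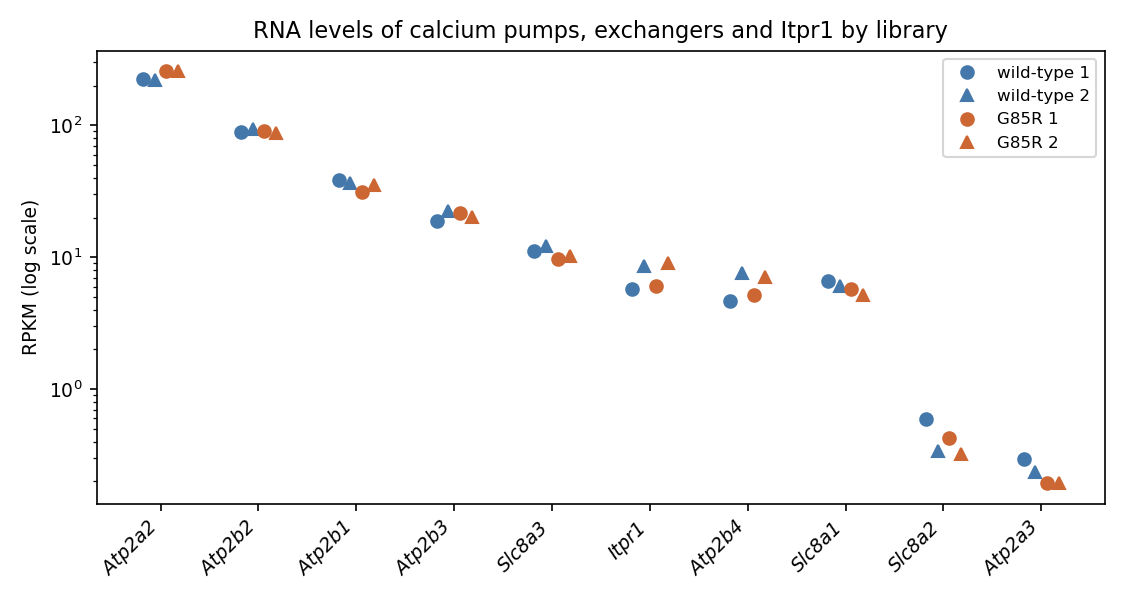
RPKM on a log scale of the 10 genes, ordered by their mean, in wild-type (blue) and G85R (orange) libraries, replicate 1 as circles and replicate 2 as triangles, each point being 1 library. Levels span from 257 RPKM for Atp2a2 to 0.194 for Atp2a3, while the libraries of a gene lie close together next to the distances between most genes.

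The comparison of genotypes asks whether expression of the G85R protein, before paralysis, goes with a change in RNA for calcium clearance. It was tested with limma, a linear model for each gene with variances moderated across genes, on log2(RPKM + 0.1) for the 11530 genes, 2 libraries against 2. Calls required an adjusted p (Benjamini-Hochberg, over all tested genes) below 0.05. They were made for 0 of the 8 members tested and for 0.642% of all tested genes. At an unadjusted p under 0.05 it was again 0 of 8, against 11% of all tested genes. The likelihood ratio test of a log-linear model that the study's methods name called 0 of 10 members after adjustment (0.228% of all 27189 genes) and 1 of 10, Atp2a2, at a raw p under 0.05 (1.29% of all genes). This test takes RPKM rounded to whole numbers, so that it could not call Atp2a3 or Slc8a2, which were under 1 RPKM. Most of the 27189 genes were also under 1 RPKM, which bears on both shares. Of the 8 tested members 4 were higher and 4 lower on average in G85R, with a median log2 difference of -0.02, which is also the median of all tested genes. Adjusted p lay between 0.478 and 0.988 in limma.

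The genotypes did not overlap in 4 of the 8 tested members, where 41.2% of all tested genes showed no overlap. Of these, 1 was higher in G85R, Atp2a2, against 17.3% of all tested genes, and 3 were lower, Atp2b1, Slc8a1 and Slc8a3, against 23.9%. For a single gene, the smallest two-sided p of an exact permutation test with these 4 libraries is 0.333. Fewer motor neurons in a library and less RNA per motor neuron cannot be told apart in such samples.

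**Figure D2:**
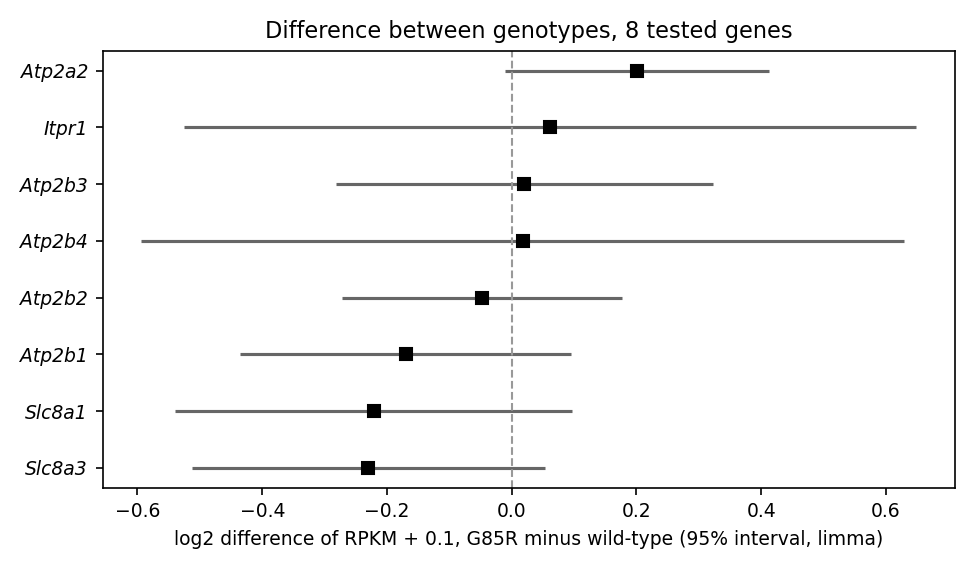
Difference between the genotypes (G85R minus wild-type) on the log2(RPKM + 0.1) scale for the 8 tested genes, squares being estimates and lines 95% intervals from limma. All 8 intervals include 0, from the narrow one of Atp2a2 (-0.01 to 0.41) to the wide ones of Itpr1 and Atp2b4.

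Atp2a2 encodes SERCA2, the pump that fills the endoplasmic reticulum in neurons and in cardiac muscle. It had 227 and 220 RPKM in wild-type against 257.0 and 257.1 in G85R replicates 1 and 2, estimated from 30387 to 33423 reads in each library. Both G85R libraries lay above both wild-type libraries, and the G85R libraries differed by far less than the genotypes. The log2 difference came to 0.20 (standard error 0.09, 95% interval -0.01 to 0.41, adjusted p = 0.478 from limma), a ratio of the means of 1.15, so that the test did not separate the genotypes and its interval allows ratios from 0.993 to 1.33. It was between 0.15 and 0.23 under every alternative tried, without a call in any of them. The astrocyte markers summed to 35.4 and 40.8 RPKM in wild-type against 126 and 51.9 in G85R, those of microglia to 15.3 and 17.2 against 38.8 and 18.6, and those of interneurons to 186 and 191 against 217 and 200, so that these sums were also higher in both G85R libraries. The astrocyte sum rested on Gfap, the only one of the 6 markers without overlap, and without it the sums were 23.9 and 23.7 against 33.7 and 23.5 and overlapped. Of the other lists, 5 of 8 microglial and 2 of 5 interneuron markers were higher in both G85R libraries, against 17.3% of all tested genes. Some microglial markers were below the level tested. Without the marker that differed most, the microglial sums were 12.0 and 13.9 in wild-type against 27.7 and 14.5 in G85R. Those of interneurons were then 145 and 155 against 167 and 157. Both thus stayed higher in G85R, in replicate 2 by little. The red blood cell markers summed to 1.82 and 2.10 RPKM in wild-type against 11.5 and 10.8 in G85R. Of these, 2 of 3 were higher in both G85R libraries. Their sum stayed higher without Hbb-b1, which was called (adjusted p = 0.0017 from limma), but then lay under 1 RPKM. The part of other cells in the level of Atp2a2 was not tested.

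Atp2a3 encodes SERCA3, a pump of blood and epithelial cells that also occurs in some neurons. It had 0.296 and 0.236 RPKM in wild-type against 0.194 and 0.196 in G85R, from an estimated 23.2 to 38.7 reads. The G85R values were the lower ones, without overlap, with a log2 difference of -0.31 on a scale that understates differences at this level. Its mean was under the 1 RPKM asked for in limma, and limma with a minimum mean of 0.1 RPKM gave an adjusted p of 0.832. The log-linear test takes RPKM rounded to whole numbers, so that it cannot tell libraries apart at this level. Atp2a2 held 99.87% to 99.92% of the summed RPKM of both SERCA genes in the 4 libraries.

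Of the plasma membrane pumps, Atp2b2 encodes PMCA2, the fastest of the 4 and best known from Purkinje cells and hair cells. It had 89.9 and 93.7 RPKM in wild-type against 90.0 and 87.6 in G85R. The values overlapped. The log2 difference of -0.05 (standard error 0.09, 95% interval -0.27 to 0.18, adjusted p = 0.926 from limma) leaves room for ratios from 0.828 to 1.13.

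Atp2b1 encodes PMCA1, which is present in most cell types. It had 38.4 and 36.4 RPKM in wild-type against 31.2 and 35.4 in G85R. Both G85R values lay below both wild-type values, G85R replicate 2 by little, and the log2 difference of -0.17 (standard error 0.11, 95% interval -0.44 to 0.10, adjusted p = 0.670 from limma) was not called. Without G85R replicate 1 the difference was -0.08.

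Atp2b3 encodes PMCA3, a pump largely restricted to neurons. With 18.9 and 22.6 RPKM in wild-type against 21.7 and 20.2 in G85R, its wild-type values enclosed those of G85R. The log2 difference was 0.02 (95% interval -0.28 to 0.32, adjusted p = 0.977 from limma), and its sign turned without wild-type replicate 1 (-0.11) and without G85R replicate 1 (-0.03).

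Atp2b4 encodes PMCA4, which is widely expressed and the lowest of the 4 here. It had 4.66 and 7.64 RPKM in wild-type replicates 1 and 2 against 5.13 and 7.11 in G85R replicates 1 and 2. Each genotype had 1 lower and 1 higher library, with replicate 2 above replicate 1 by 1.64-fold in wild-type and by 1.38-fold in G85R. The log2 difference between genotypes was 0.02 (standard error 0.26, 95% interval -0.59 to 0.63, adjusted p = 0.988 from limma) and ranged from -0.33 without wild-type replicate 1 to 0.37 without wild-type replicate 2.

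The make-up of the PMCA family was similar in the libraries. Atp2b2 held 58.3% to 60.8% of the summed RPKM of the 4 genes, Atp2b1 21.1% to 25.3%, Atp2b3 12.4% to 14.6% and Atp2b4 3.07% to 4.77%. The share of Atp2b2 averaged 58.8% in wild-type and 59.5% in G85R, a difference of 0.709 percentage points with p = 1 in an exact permutation test over libraries, two-sided, where the smallest possible p is 0.333. Summed over the 4 genes, PMCA RNA was 152 and 160 RPKM in wild-type against 148 and 150 in G85R.

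**Figure D3:**
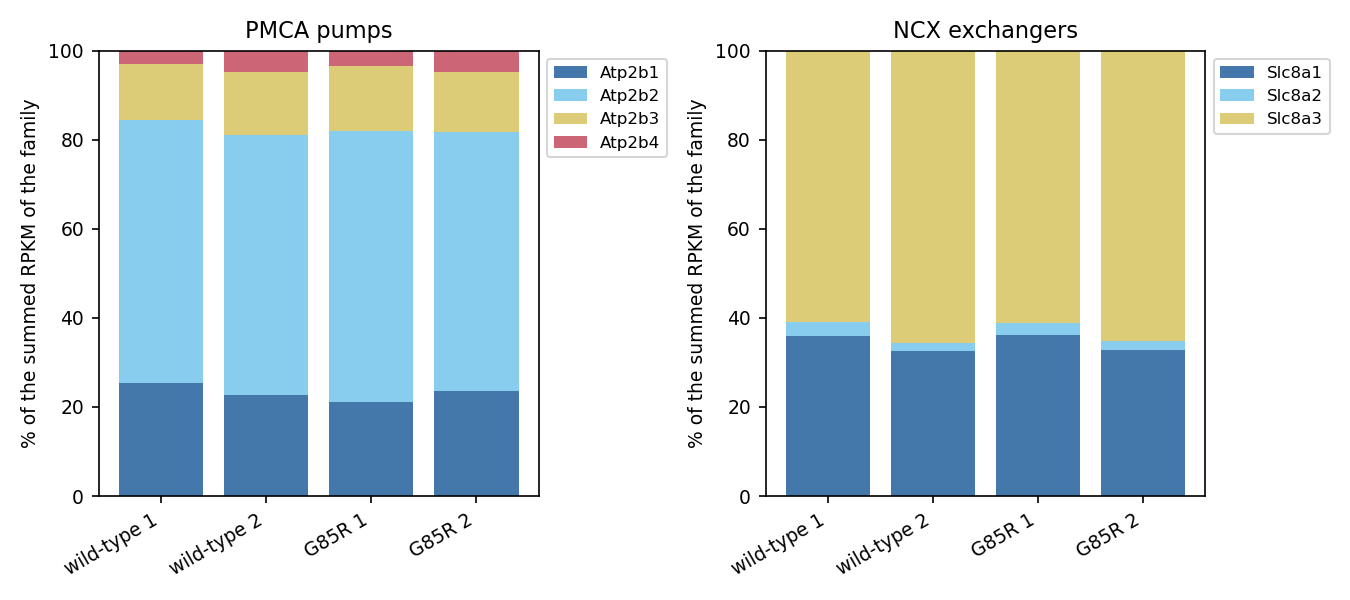
Share (%) of each gene in the summed RPKM of the PMCA pumps (left) and of the NCX exchangers (right), 1 bar for each library. Atp2b2 takes 58.3% to 60.8% of the PMCA sum and Slc8a3 takes 60.9% to 65.6% of the NCX sum. The limit on transcript length given below bears on these shares, most for Atp2b4 and Slc8a1 and less for Atp2b1 and Slc8a3.

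Of the exchangers, Slc8a3 encodes NCX3, which is found in neurons and skeletal muscle. It had 11.2 and 12.3 RPKM in wild-type against 9.69 and 10.3 in G85R, from an estimated 792 to 1168 reads. Both G85R values were below both wild-type values, with a log2 difference of -0.23 (standard error 0.12, 95% interval -0.51 to 0.05, adjusted p = 0.553 from limma). Slc8a1, which encodes NCX1, the main exchanger of the heart and also present in brain, had 6.61 and 6.10 in wild-type against 5.71 and 5.17 in G85R. Its values did not overlap either and lay lower in G85R, with a log2 difference of -0.22 (standard error 0.13, 95% interval -0.54 to 0.10, adjusted p = 0.629 from limma). Neither difference was called in any alternative, and both kept their sign in all of them.

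Slc8a2 encodes NCX2, the exchanger that prevails in forebrain neurons. It was low in these cell bodies, with 0.598 and 0.342 RPKM in wild-type against 0.424 and 0.325 in G85R, and the genotypes overlapped. Since its cluster holds a single transcript, whole reads could be recovered for it, and they were 74.0 and 45.0 in wild-type against 48.0 and 39.0 in G85R. The wild-type replicates thus differed more than the genotypes, and the gene was below the level required in the main test. Its adjusted p was 0.887 in limma with a minimum mean of 0.1 RPKM. The log-linear test, on RPKM rounded to whole numbers, could not have called it at this level.

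Within the NCX family Slc8a3 held 60.9% to 65.6% of the summed RPKM, Slc8a1 32.6% to 36.1% and Slc8a2 1.83% to 3.25%. The limit on transcript length given below for Slc8a1, and to a lesser degree for Slc8a3, bears on these shares. The share of Slc8a3 averaged 63.2% in both genotypes (p = 1 in the exact permutation test, with a smallest possible p of 0.333). The sum of the 3 exchangers was 18.4 and 18.7 RPKM in wild-type against 15.8 in each G85R library, a ratio of 0.851. This sum is a description and was not tested, since its genes were picked as a family. The endothelial markers, the only list with a lower sum in both G85R libraries, went from 8.87 and 9.96 in wild-type to 7.88 and 7.49 in G85R. This rested on 1 of the 6 markers, without which the sums were 3.62 and 3.16 against 3.64 and 2.78 and overlapped. Of the 7 motor neuron markers, 3 were lower in both G85R libraries and 0 higher, where 23.9% of all tested genes were lower. The motor neuron sums overlapped. The part of either list in the level of the exchangers was not tested.

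Set side by side, the ratio of SERCA to PMCA RNA was 1.496 and 1.38 in wild-type against 1.74 and 1.71 in G85R, and the ratio of PMCA to NCX RNA was 8.24 and 8.57 against 9.35 and 9.52. Both ratios were higher in both G85R libraries, with no overlap. They are descriptions of sums over genes of which none was called, and carry no test. Of the summed RPKM of all 10 genes, Atp2a2 alone made up 56.3% and 54.0% in wild-type against 60.2% and 59.5% in G85R.

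Itpr1, the type 1 inositol trisphosphate receptor, is the main release channel of many central neurons. It had 5.79 and 8.62 RPKM in wild-type replicates 1 and 2 against 6.03 and 9.03 in G85R replicates 1 and 2. As with Atp2b4, the libraries of a genotype differed more than the genotypes, and replicate 2 exceeded replicate 1 by 1.49-fold in wild-type and by 1.498-fold in G85R. The log2 difference between genotypes was 0.06 (standard error 0.25, 95% interval -0.53 to 0.65, adjusted p = 0.965 from limma), and it turned to -0.22 without wild-type replicate 1 and to -0.23 without G85R replicate 2. The motor neuron markers summed to 2455 and 2710 RPKM in wild-type against 2194 and 2558 in G85R, also higher in replicate 2 of each genotype, while the oligodendrocyte markers had 860 and 807 in wild-type against 1027 and 786 in G85R and were lower there. What libraries of the same number share is not given in the sources used here, and the part of these markers in the levels of Atp2b4 and Itpr1 was not tested.

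**Figure D4:**
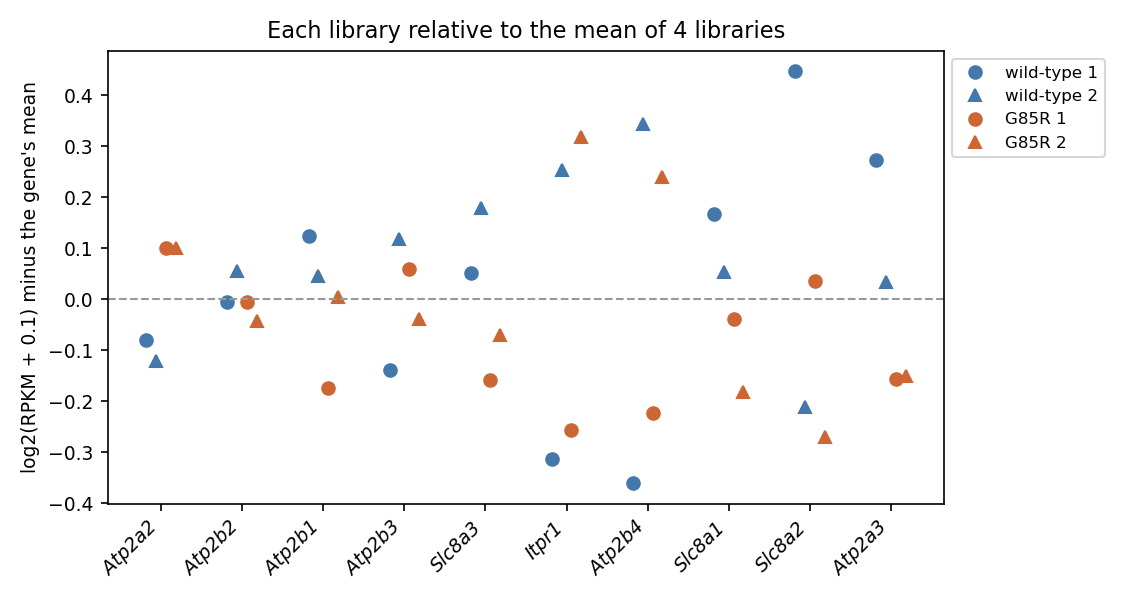
Deviation of each library from the mean of the 4 libraries on the log2(RPKM + 0.1) scale, by gene, for wild-type (blue) and G85R (orange), replicate 1 as circles and replicate 2 as triangles. Colors separate for Atp2a2, Atp2a3, Atp2b1, Slc8a1 and Slc8a3, while for Itpr1 and Atp2b4 the circles lie below the triangles in both genotypes.

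Levels of Itpr1, Atp2b4 and Slc8a1 carry a limit from the processing. The RPKM of 1 read, which shrinks with transcript length, corresponded in these genes to 1218, 1532 and 558 bases. These were only 12.4%, 18.02% and 19.1% of their longest transcript in GENCODE. The scale was set on genes with 1 transcript, so that their median of 100% (over 1318 tested genes) follows from it. The spread among them does not, and their quartiles were 96.5% and 100%. In the other members this share was 45.5% for Atp2b1 and 61.7% to 97.0% for the rest, with Slc8a3 at 61.7% and Atp2b3 at 93.5%. The limit may thus also reach the level of Atp2b1 and its place beside Atp2b3. The clusters of Itpr1, Atp2b4 and Slc8a1 join 4 to 6 UCSC transcripts. The reads estimated for these 3 genes, 196 to 326 for Itpr1, 209 to 364 for Atp2b4 and 81.8 to 108 for Slc8a1, are uncertain, as is their place among the members. What set these short lengths was not tested.

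The rest of the calcium transport machinery was taken from a list of 49 genes by role, of which 46 were in the files and 39 were tested. With limma 0 of the 39 were called (0.642% of all tested genes), and 3 had an unadjusted p under 0.05 (11% of all tested genes, a larger share than 3 of 39). The log-linear test called 0 of the 46 after adjustment (0.228% of all 27189 genes) and 1 at a raw p under 0.05 (1.29% of all genes). This was Bsg, named here after its values were seen, with 369 and 380 RPKM in wild-type against 423 and 432 in G85R (unadjusted p = 0.0667 from limma). The mean was higher in G85R for 11 and lower for 28, where it was higher for 45.3% of all tested genes, with a median log2 difference of -0.04 (-0.02 for all tested genes), and 16 of 39 did not overlap between the genotypes, against 41.2% of all tested genes. The 3 genes with an unadjusted p under 0.05 in limma were Orai3, Mcu and Sln.

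Orai3, a pore subunit of the channels that open when stores are empty, had 4.23 and 4.92 RPKM in wild-type against 6.40 and 7.86 in G85R, with a log2 difference of 0.63 (standard error 0.16, adjusted p = 0.196 from limma). Both G85R values were higher, and a model with replicate number as a block called it (adjusted p = 0.0237 from limma). That model called 4.57% of all tested genes, a larger share than the 1 of 39 here, and nothing in the labels says that libraries of the same number are paired. Mcu, the pore of the mitochondrial calcium uniporter, listed in the files as Ccdc109a, had 26.1 and 25.6 in wild-type against 21.4 and 22.2 in G85R. Its log2 difference was -0.25 (standard error 0.10, adjusted p = 0.446 from limma). Sln, a small inhibitor of SERCA pumps known from muscle, had 1.12 and 0.310 in wild-type against 1.37 and 1.63 in G85R, from an estimated 5.00 to 24.0 reads, where the gap between the wild-type replicates exceeded that between the nearest libraries of different genotype (log2 difference 1.17, standard error 0.49, adjusted p = 0.446 from limma). Pln, the SERCA inhibitor of the heart, named here after its values were seen, was listed at 0 in 3 libraries and at 0.0443 in wild-type replicate 1.

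Among the release channels Itpr3 had the highest mean of its group, with 11.9 and 17.0 RPKM in wild-type against 11.3 and 13.3 in G85R, above Itpr1 in every library. Of the RPKM summed over the 3 inositol trisphosphate receptors, Itpr1 made up 31.7% to 40.0%, Itpr3 58.8% to 65.3% and Itpr2 1.16% to 3.00%. Ryr2, the ryanodine receptor of heart and brain, was steady, with 8.81 and 8.53 in wild-type against 8.60 and 8.45 in G85R, while Ryr3 had 2.21 and 2.24 against 1.51 and 1.82 and Ryr1 at most 0.0524 in any library. Itpr2 and the ryanodine receptors are named after their values were seen. The limit on transcript length given for Itpr1 bears on its share. Such lengths were not worked out for genes other than the members. Levels of the other release channels may therefore carry the same limit.

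The most abundant genes of the other roles differed little between genotypes. Nptn encodes neuroplastin, a partner that PMCA pumps need to reach the membrane, and had 457 and 434 RPKM in wild-type against 437 and 450 in G85R. Slc24a2, an exchanger that also moves potassium, had 59.9 and 59.6 against 58.9 and 60.0, above the sum of the 3 NCX genes in every library. Atp2c1, the calcium pump of the Golgi, had 24.6 and 21.5 against 22.3 and 23.7. Stim2, a calcium sensor of the endoplasmic reticulum, had 34.4 and 31.4 against 28.4 and 30.1, Vdac1, a pore of the outer mitochondrial membrane, 321 and 334 against 309 and 337, and Calr, a calcium-binding chaperone of the endoplasmic reticulum, 240 and 200 against 242 and 176. The adjusted p of these 6 genes lay between 0.662 and 0.997 in limma, and only in Stim2 did the genotypes not overlap.

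**Figure D5:**
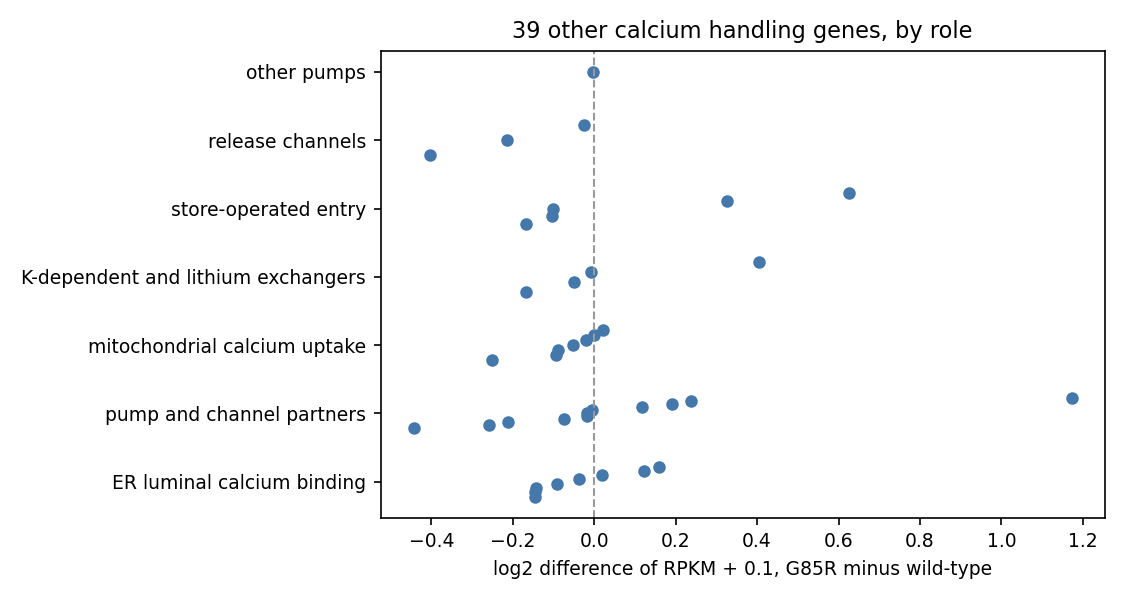
Difference between genotypes (G85R minus wild-type) on the log2(RPKM + 0.1) scale for the 39 other calcium handling genes tested, each point being 1 gene, set out by role. Most points lie between -0.44 and 0.41, with Orai3 at 0.63 and Sln at 1.17 to the right.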

How the data were processed

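Libraries were sequenced as single-end reads of 75 bases from polyA RNA. The authors mapped the reads with Bowtie 0.12.3 to mm9 and to splice junctions of UCSC Known Genes, quantified each UCSC gene cluster with Cufflinks, and deposited RPKM as calculated and RPKM with 1 read added to every gene. Whether strand was used is not given in the sources used here. The difference of both columns is the RPKM of 1 read, with a median over genes of 0.0195 to 0.0226. Dividing by it gave whole reads (within 0.01) for 86.4% to 86.9% of the values under 100 reads in clusters of 1 transcript, but for 3.32% to 3.82% in clusters of several. For this reason no test was run on the estimated reads and no counting intervals are given.

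The test between genotypes (2 libraries each) was limma (version 3.58.1, R 4.3.3), using lmFit and then eBayes with its trend option, without a block. It took log2(RPKM + 0.1) of the 11530 genes whose RPKM averaged 1 or more, and p-values were adjusted over all of them. The log-linear likelihood ratio test took the RPKM with 1 read added, rounded, as Poisson values against chi-square with 1 degree of freedom. Family shares were compared by exact permutation over libraries. The fit was tested on simulated data. Members, gene lists and tests were chosen with earlier results of these data known. Named genes are all members and, of the other calcium genes, any called, any with an unadjusted p under 0.05 and no overlap between genotypes, and the most abundant of each role. Of the markers, Chat, Gfap, Mbp, C1qa and Hbb-b1 are named. Coordinates and coding sequences came from GENCODE vM1 (NCBIM37). Python 3.11.15, pandas 2.3.3 and Biopython 1.88 were used for other values. Some sequences of the members are not reported here.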

Additional observations from a re-analysis of the deposited data

How the results depend on the processing

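Alternatives were pseudocounts of 1 and 0.01, a minimum mean RPKM of 5, 0.1 or none, quantile normalization, rescaling by the median ratio, a replicate block, eBayes without trend or with robust estimation, the log-linear test, summed entries, 1 read added (for shares), and leaving out each library, where the lone library of a genotype is assumed to vary like the other genotype. The number of members called was 0 in all of these, and their lowest adjusted p was 0.199, for Atp2a2 with the block. At an unadjusted p under 0.05, 1 member passed with the block and 1 after rescaling by the median ratio, Atp2a2 in both. The share of all tested genes under that threshold is not given for either setting, so that these counts cannot be set against it. With the block, 4.57% of all tested genes were called even after adjustment. Calls over all genes were 74, and 49 without trend, 17 with a minimum of 5, 112 without a filter (2 of them among the 74), 40 after quantile normalization and 527 with the block (all 74 among them), and without 1 library they ranged from 78 to 188, the highest without G85R replicate 2. Of the other calcium genes 0 were called, except for 1, Orai3, with the block. Libraries with the same replicate number deviated together (r = 0.22 over the 11530 genes, which are not independent), but nothing in the labels says that they are paired, and the blocked fit changed no member's call. The sign of the difference held under every alternative for Atp2a2, Atp2b1, Atp2b2, Slc8a1 and Slc8a3. It turned for Atp2b4 in the log-linear test (-0.0062), where the difference is the log2 ratio of mean RPKM and not a difference of mean log2 values. The ratio of means of Atp2b4 was 0.995 without the added read too. Without 1 library the values ranged from -0.33 to 0.37 for Atp2b4, from -0.23 to 0.35 for Itpr1 and from -0.11 to 0.15 for Atp2b3. What made them vary between libraries was not tested. Leaving out 1 library, the difference in share ranged from -0.55 to 1.97 percentage points for Atp2b2 and from -2.36 to 2.34 for Slc8a3, and its sign turned without G85R replicate 1 (-0.55 and 1.99) and, for Slc8a3, without wild-type replicate 2 (2.34). Atp2a3 and Slc8a2, at an estimated 23.2 to 74.0 reads, entered limma only with a minimum of 0.1 or none, where their adjusted p lay between 0.832 and 1. Marker sums without 1 marker were added after seeing the data.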
